A study of Mus musculus with 8 samples.

Results

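The genes described here code for 10 integrin subunits that bind the extracellular matrix or its partner ligands, namely Itgb1, Itgb3, Itgb5, Itgb7, Itgb8, Itgav, Itga4, Itga5, Itga6 and Itga9. They were taken by gene symbol from a table of 54532 genes, without regard to their values, and 8 of the 10 had enough counts to be tested among 12911 genes. Itga9 and Itgb8 did not pass the filter on low counts. Bulk RNA sequencing was performed on bone marrow-derived macrophages (BMDMs), which are obtained by culture of marrow cells with the growth factor M-CSF. The study compared BMDMs of wild-type (WT) mice with those of Gsdmd-/- mice, which lack the pore-forming protein gasdermin D, to find the genes that differ between them. Each genotype had 4 libraries of untreated cells after 6 days of differentiation in 20 ng/ml M-CSF. The methods give female C57BL/6J mice aged 6 to 8 weeks as the source of marrow. They do not state strain, sex or age separately for the Gsdmd-/- mice. The WT mice were purchased, whereas the Gsdmd-/- mice were a gift and were kept in an animal facility of the university, so that genotype and mouse source cannot be told apart. Neither the labels nor the methods say whether the 4 libraries of a genotype came from separate mice, and the p-values therefore measure the spread between these libraries, which may be technical.

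Integrins are receptors made of 1 alpha and 1 beta subunit that reach the cell surface only as a pair. The beta subunits bind talin and kindlin in the cytoplasm, which link the receptor to actin, and the pair as a whole decides which ligand is bound. Itgb1 is the most widely shared beta subunit, Itgav pairs with several beta subunits to bind RGD-containing ligands such as vitronectin and osteopontin and to release latent TGF-beta, and the pair of Itgav with Itgb3 is the hallmark integrin of osteoclasts, which arise from the same precursors as macrophages.

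Promoter sequences from RefSeq (GRCm38.p6) were found for 8 of the 10 genes, and not for Itgb3 and Itga6. The promoters of Itgav, Itgb5 and Itgb7 are shown, because they are the members, besides Itgb3, whose call depended on which WT libraries were used, as described with each gene. Each sequence covers 250 bases before the transcription start and 50 after it. It reads 5′ to 3′ on the strand of the gene, and capitals mark the letters of a motif found on either strand.
Itgav, chr2:83724147-83724446, plus strand: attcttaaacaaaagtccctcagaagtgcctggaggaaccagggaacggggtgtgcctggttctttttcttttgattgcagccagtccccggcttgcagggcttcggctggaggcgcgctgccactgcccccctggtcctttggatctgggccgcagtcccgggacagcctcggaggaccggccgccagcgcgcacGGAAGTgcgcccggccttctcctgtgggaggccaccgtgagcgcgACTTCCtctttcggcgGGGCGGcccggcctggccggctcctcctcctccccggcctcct
Itgb5, chr16:33829415-33829714, plus strand: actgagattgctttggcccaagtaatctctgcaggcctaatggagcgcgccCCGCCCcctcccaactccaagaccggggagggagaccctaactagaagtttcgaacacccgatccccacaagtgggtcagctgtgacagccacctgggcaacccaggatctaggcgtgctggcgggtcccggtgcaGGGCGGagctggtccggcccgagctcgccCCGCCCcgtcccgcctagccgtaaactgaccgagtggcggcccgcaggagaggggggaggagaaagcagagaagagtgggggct
Itgb7, chr15:102231886-102232185, minus strand: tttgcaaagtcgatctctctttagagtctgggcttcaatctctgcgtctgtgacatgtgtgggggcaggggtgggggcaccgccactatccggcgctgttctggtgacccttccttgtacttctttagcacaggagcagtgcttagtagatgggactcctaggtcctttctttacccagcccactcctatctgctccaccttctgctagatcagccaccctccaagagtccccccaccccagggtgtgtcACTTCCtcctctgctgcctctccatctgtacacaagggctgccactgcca
The motifs searched on both strands were GGAAGT, the core of ETS factor sites, GGGCGG, the GC box of SP and KLF factors, TGANTCA of AP-1 and GCGTGGGNG of EGR factors. The ETS letters were found at 2 positions in the Itgav promoter and at 1 in that of Itgb7, and are held by 23.8% of 32851 promoters of the same length. The GC box occurred 3 times in the Itgb5 promoter, 2 times in that of Itga5 and 1 time each in those of Itgav, Itgb1 and Itga4, against 35.7% of all promoters with a match. The AP-1 letters, held by 7.81% of all promoters, were seen among the 8 in that of Itga9 alone, whose window lies inside the gene as GENCODE places it, and the EGR letters, held by 1.9%, in none of the 8. The GC content was 67.3% in the Itgav promoter, 65.7% in that of Itgb5 and 56.3% in that of Itgb7, where the median of all promoters was 52.7%. The Itgav promoter held 24 CpG dinucleotides and the Itgb5 promoter 20, whereas the Itgb7 promoter held 5 and the median promoter 7. A match describes the letters only.

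Total counts lay between 14935114 and 16794810 per library, so that 3 counts, the most that a count of 0 allows, corresponded to between 0.177 and 0.199 CPM. CPM are counts scaled to a common library size, with effective sizes from the trimmed mean of M-values (TMM). Gsdmd itself had 63.5 to 95.5 CPM in the WT libraries and 14.4 to 18.2 CPM in the Gsdmd-/- libraries, so that the lower level lay in the 4 libraries labelled Gsdmd-/-. In a principal component analysis, WT libraries 2 and 3 lay at 45.4 and 38.8 on the first component (43.6% of the variance), and the other 6 libraries lay between -25.9 and -7.19. Where a result is said to rest on these 2 libraries, it is also given without them or by library. Macrophage markers were high in both genotypes, with a sum over the 14 listed genes of 16989 to 25006 CPM in WT and 20960 to 24948 CPM in Gsdmd-/- libraries, led by the lysozyme gene Lyz2.

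Of the 8 integrin genes tested, none had an adjusted p under 0.05 in edgeR's quasi-likelihood test, which called 0.349% of all genes tested. At an unadjusted p under 0.05 there was 1, where 12% of all genes had such a p. An adjusted p under 0.05 was reached by 1 with the exact test of edgeR (1.91% of all genes), 1 with DESeq2 (2.26%), 0 with limma voom (0.333%) and 3 with voom and sample quality weights (13.9%), which were Itgb3, Itgav and Itgb7. The log2 fold changes (Gsdmd-/- over WT) of 4 members lay above 0 and those of 4 below 0, with a median of 0.0057, against -0.0068 over all genes tested. At the cutoff of the study (unadjusted p under 0.05 and a log2 fold change of 0.5 or more in either direction), 1 member, Itgb3, was higher in Gsdmd-/- cells (1.54% of all genes tested) and 0 were lower (3.28% of all genes). Itgb3 was likewise the 1 member whose CPM did not overlap between the genotypes in the higher direction (3.48% of all genes), and 0 members did so in the lower direction (4.12% of all genes). These genes are measured in bulk RNA, where fewer cells of a type and less RNA per cell cannot be told apart.

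**Figure D1:**
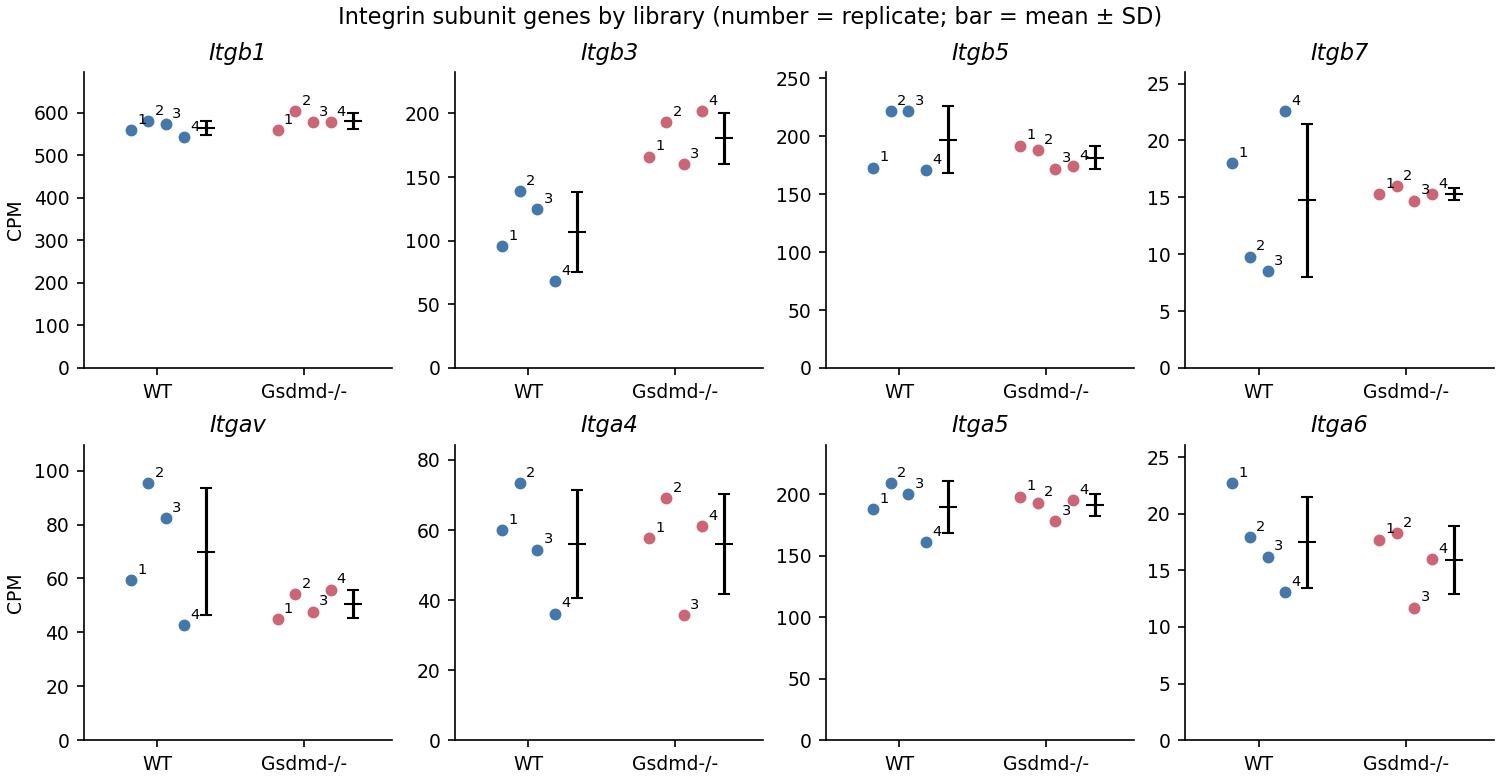
CPM of the 8 tested integrin genes in each WT (blue) and Gsdmd-/- (red) library, with the replicate number beside each point and the mean ± SD (n = 4) as a bar. The Itgb3 values of the Gsdmd-/- libraries, from 160 to 202 CPM, all lie above those of the WT libraries, which reach 139 CPM, while the genotypes overlap for the other 7 genes.

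Itgb3 (ENSMUSG00000020689, chromosome 11, 104608000 to 104670476, plus strand, mm10) codes for the beta subunit that binds vitronectin, fibrinogen and osteopontin together with Itgav. It had 95.8, 139, 125 and 68.1 CPM in WT libraries 1 to 4 and 166, 193, 160 and 202 CPM in Gsdmd-/- libraries 1 to 4. Every Gsdmd-/- library was above every WT library, and the WT libraries spread more widely, with libraries 2 and 3 nearest to the Gsdmd-/- values. The mean was 107 ± 31.5 CPM in WT and 180 ± 20.5 CPM in Gsdmd-/- cells (SD, n = 4 each). The fitted fold change was 1.68 (95% confidence interval 1.25 to 2.27), with an adjusted p of 0.174 in edgeR's quasi-likelihood test. Without WT libraries 2 and 3 the log2 fold change was 1.13 (adjusted p = 0.0121), and with these as the only WT libraries it was 0.45 (adjusted p = 0.0182), both from the same edgeR test. The side of the threshold also depended on the tool, since the exact test of edgeR gave an adjusted p of 0.0194, DESeq2 one of 0.0171 and limma voom one of 0.157. The log2 fold change of Itgb3 stayed above 0 in all 19 alternatives tried, between 0.45 and 1.13.

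Since Itgb3 is also an osteoclast gene, the osteoclast markers are given beside it. The sum of the 10 listed markers was 1736 to 1981 CPM in WT and 2040 to 2307 CPM in Gsdmd-/- libraries, without overlap. Most of the sum came from Atp6v0d2, a proton pump subunit, at 1262 ± 73.8 CPM in WT against 1527 ± 38.4 CPM in Gsdmd-/- cells. The log2 fold changes of the 8 tested markers lay above 0 in 3 and below 0 in 5, with a median of -0.066. The genotypes did not overlap for 3 of the 8, Ctsk, Atp6v0d2 and Mmp9, all higher in Gsdmd-/- cells (3.48% of all genes), and for 0 in the lower direction (4.12% of all genes). Of these 8, Ctsk (cathepsin K, which degrades bone collagen) and Mmp9 were higher at the study's cutoff, with log2 fold changes of 0.65 and 1.21, and Acp5 (tartrate-resistant acid phosphatase) and Dcstamp (a fusion receptor) were lower, at -0.95 and -0.63. Without WT libraries 2 and 3 the log2 fold change was 0.51 for Ctsk, 0.78 for Mmp9 and -0.66 for Dcstamp. That of Acp5 turned to 0.28 without these 2 libraries, which had 137 and 153 CPM of Acp5. WT libraries 1 and 4 (35.8 and 42.6 CPM) lay below all Gsdmd-/- libraries (43 to 52.2 CPM) for Acp5. None of the 8 passed an adjusted p of 0.05 in edgeR's quasi-likelihood test, against 5 at an unadjusted p under 0.05, 1 (Ctsk) by the exact test of edgeR, 2 by DESeq2, 0 by voom and 5 by voom with quality weights at an adjusted p, beside the shares of all genes given above. Calcr, the calcitonin receptor of mature osteoclasts, had 0 counts in all 8 libraries. The part of these cells in the Itgb3 values was not tested.

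Itgav (ENSMUSG00000027087, chromosome 2, 83724397 to 83806916, plus strand), the alpha partner of Itgb3, had 59.4, 95.4, 82.5 and 42.6 CPM in the WT libraries and 45, 54.2, 47.7 and 55.9 CPM in the Gsdmd-/- libraries. WT libraries 2 and 3 were far above the Gsdmd-/- range, WT library 1 was slightly above it and WT library 4 was the lowest of all 8. The log2 fold change was -0.47 (95% interval -0.94 to 0.01), with an adjusted p of 0.428 in edgeR's quasi-likelihood test. It rested on WT libraries 2 and 3: without them the log2 fold change was -0.014 (adjusted p = 0.983), and against these alone it was -0.81 (adjusted p = 0.000736), in the same edgeR test. An antisense transcript, Gm13684, shares 634 bases of exon with Itgav and had 3 counts in all WT and 3 in all Gsdmd-/- libraries.

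Although the log2 fold changes of Itgb3 and Itgav had opposite signs, their levels varied together within each genotype. The ratio of Itgb3 to Itgav counts was 1.61, 1.46, 1.51 and 1.6 in the WT libraries and 3.68, 3.56, 3.35 and 3.61 in the Gsdmd-/- libraries. The ratio was thus nearly constant within a genotype, including in WT libraries 2 and 3, and the genotypes lay far apart. Its mean was 1.55 ± 0.0735 in WT and 3.55 ± 0.144 in Gsdmd-/- cells (SD, n = 4 each), a difference of 1.20 on the log2 scale, or 2.3-fold. The SD of the log2 ratio was 0.0691 in WT and 0.0593 in Gsdmd-/- libraries, where counting error alone gives 0.0474 to 0.0695. The difference was 1.14 without WT libraries 2 and 3, 1.26 without WT libraries 1 and 4, and between 1.17 and 1.23 when each library was left out in turn. This pair was singled out after its values had been seen, and no test is given.

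**Figure D2:**
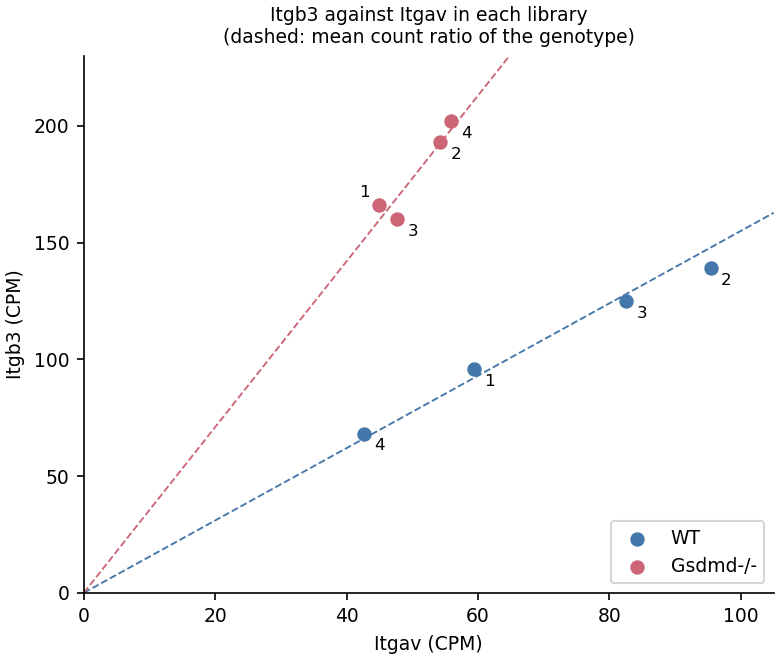
Itgb3 (y axis, CPM) against Itgav (x axis, CPM) in the 4 WT (blue) and 4 Gsdmd-/- (red) libraries, numbered by replicate, with dashed lines through 0 at the mean count ratio of each genotype. The WT points lie along the line of ratio 1.55 and the Gsdmd-/- points along that of ratio 3.55.

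Among the 28 pairs that the 8 tested genes form, Itgb3 with Itgav had the smallest pooled within-genotype SD of the log2 ratio, at 0.0644, where the median pair had 0.319 and the largest value was 0.84. The ratios did not overlap between genotypes in 6 of the 28 pairs, and each of these 6 included Itgb3, which forms 7 pairs. The exception among its pairs was that with Itgb7. Itgb3 did not overlap between genotypes by itself, and its ratio to 54% of all other genes tested did not overlap either, so this count largely restates the values of Itgb3. By Pearson's r of the deviations from the genotype means of log2 CPM, Itgb3 and Itgav had r = 0.99 over the 8 libraries, and Itgav ranked at position 14 of 12910 genes by this measure. It ranked at position 11 by the smallest pooled SD of the log2 ratio to Itgb3, for which the median gene had 0.407. Across the 8 libraries without removal of the genotype means, r was 0.09. These coefficients are descriptions over 8 libraries that share their depth and the spread of WT libraries 2 and 3.

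**Figure D3:**
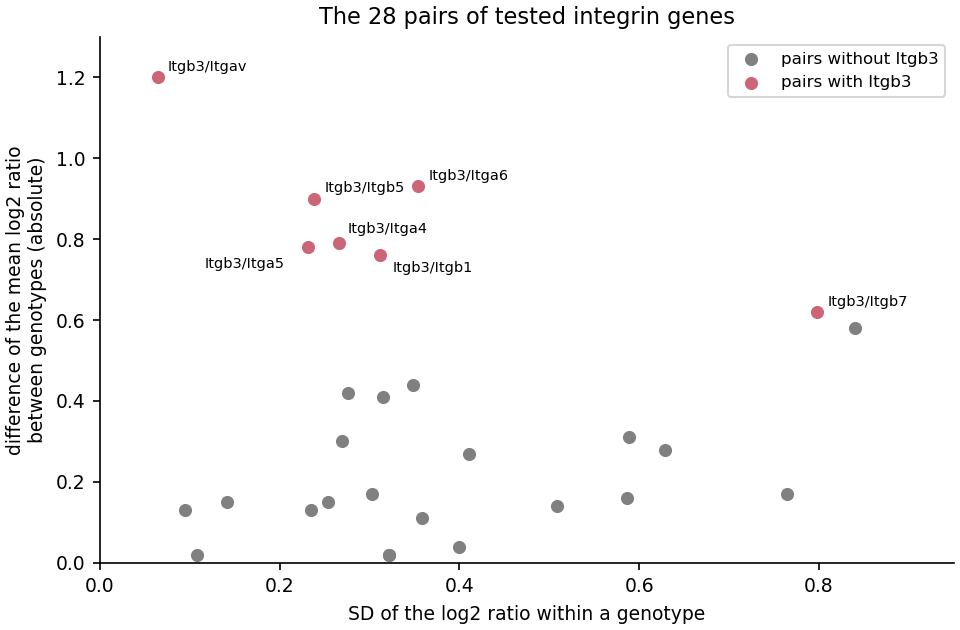
Each point is 1 of the 28 pairs of tested integrin genes, placed by the pooled SD of its log2 count ratio within a genotype (x axis) and by the absolute difference of the mean log2 ratio between genotypes (y axis). The pair of Itgb3 and Itgav lies alone at the upper left, at an SD of 0.0644 and a difference of 1.20.

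Itgb5 (ENSMUSG00000022817, chromosome 16, 33829665 to 33949338, plus strand), another beta partner of Itgav and a vitronectin receptor, had 173, 222, 222 and 171 CPM in the WT libraries and 192, 188, 172 and 174 CPM in the Gsdmd-/- libraries. WT libraries 2 and 3 were above, and WT libraries 1 and 4 at the lower edge of, the Gsdmd-/- range. The log2 fold change was -0.12 (95% interval -0.36 to 0.12), with an adjusted p of 0.721 in edgeR's quasi-likelihood test. It turned to 0.075 (adjusted p = 0.823) without WT libraries 2 and 3 and was -0.29 (adjusted p = 0.031) against these alone, in the same edgeR test.

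Itgb7 (ENSMUSG00000001281, chromosome 15, 102215995 to 102231944, minus strand), which pairs with Itga4 in the gut-homing receptor for MAdCAM-1 and with the epithelium-binding subunit Itgae, had 18, 9.78, 8.49 and 22.6 CPM in the WT libraries and 15.3, 16, 14.7 and 15.3 CPM in the Gsdmd-/- libraries. WT libraries 2 and 3 lay below and WT libraries 1 and 4 above all Gsdmd-/- libraries, so that the pair that was high for Itgav was low here. The coefficient of variation was 45.7% in WT and 3.51% in Gsdmd-/- libraries. The log2 fold change was 0.06 (95% interval -0.54 to 0.66), with an adjusted p of 0.953 in edgeR's quasi-likelihood test. It was -0.40 (adjusted p = 0.163) without WT libraries 2 and 3 and 0.74 (adjusted p = 0.00223) with these as the WT group, in the same edgeR test.

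**Figure D4:**
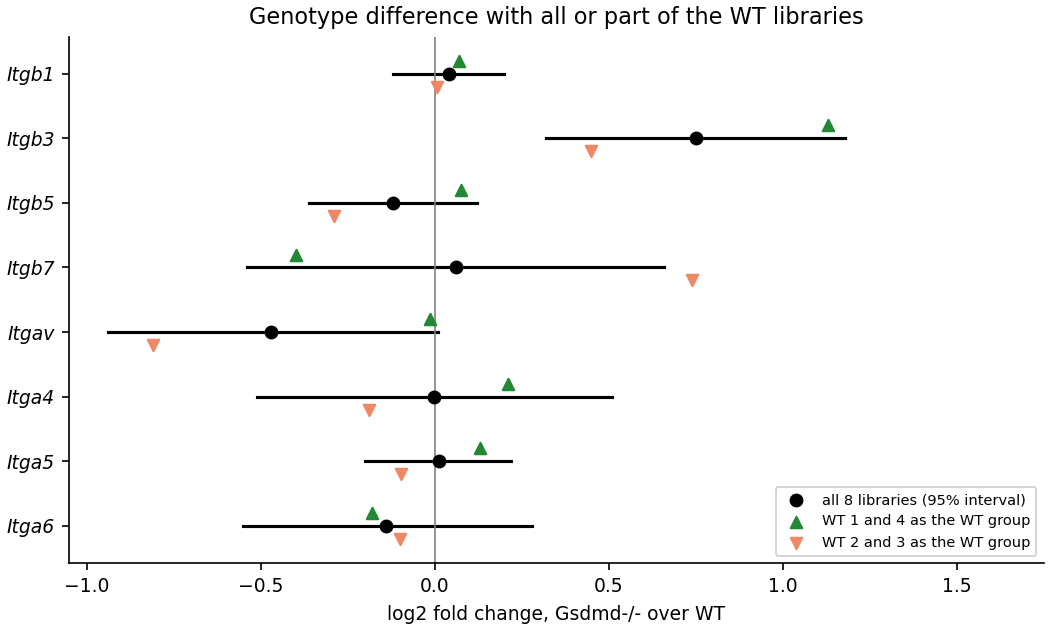
Log2 fold change (Gsdmd-/- over WT, x axis) of each tested integrin gene with all 8 libraries (black, with the 95% confidence interval), with WT libraries 1 and 4 as the WT group (green) and with WT libraries 2 and 3 as the WT group (orange). Itgb3 stays to the right of 0 in the 3 fits, from 0.45 to 1.13, whereas Itgb7 moves from -0.40 to 0.74 and Itgav from -0.81 to -0.014.

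Itgb1 (ENSMUSG00000025809, chromosome 8, 128685654 to 128733200, plus strand) had 559, 579, 573 and 543 CPM in the WT libraries and 558, 604, 578 and 578 CPM in the Gsdmd-/- libraries. The ranges overlapped between 558 and 579 CPM, Gsdmd-/- library 2 was the highest and WT library 4 the lowest of all 8, and the coefficients of variation of 2.85% and 3.25% were the lowest of the 8 tested genes in each genotype. The interval of its log2 fold change, -0.12 to 0.20 around 0.04, was the narrowest of the 8 tested, with an adjusted p of 0.867 in edgeR's quasi-likelihood test.

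Itga5 (ENSMUSG00000000555, chromosome 15, 103344286 to 103366763, minus strand), which forms the main fibronectin receptor with Itgb1, had 188, 209, 200 and 161 CPM in the WT libraries and 198, 193, 178 and 195 CPM in the Gsdmd-/- libraries. All Gsdmd-/- values lay within the WT range. Its log2 fold change was 0.013 (95% interval -0.20 to 0.22), with an adjusted p of 0.974 in edgeR's quasi-likelihood test.

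Itga4 (ENSMUSG00000027009, chromosome 2, 79255426 to 79333123, plus strand), which binds VCAM-1 and fibronectin with Itgb1, had 60, 73.4, 54.4 and 36.1 CPM in the WT libraries and 57.6, 69.1, 35.8 and 61.2 CPM in the Gsdmd-/- libraries. The low values were those of WT library 4 and Gsdmd-/- library 3, and the ranges were nearly the same. Its fitted log2 fold change was -0.0012 (95% interval -0.51 to 0.51), with an adjusted p of 0.999 in edgeR's quasi-likelihood test. Cerkl, on the opposite strand, shares 1124 bases of exon with Itga4 and had 73 counts in all WT and 83 in all Gsdmd-/- libraries, and whether strand was used in counting is not given in the sources used here.

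Itga6 (ENSMUSG00000027111, chromosome 2, 71745616 to 71858416, plus strand), a laminin-binding subunit, had 22.7, 17.9, 16.2 and 13.1 CPM in the WT libraries and 17.7, 18.3, 11.7 and 16 CPM in the Gsdmd-/- libraries. The highest value was that of WT library 1 and the lowest that of Gsdmd-/- library 3, with overlap between. Itga6 had a log2 fold change of -0.14 (95% interval -0.55 to 0.28), with an adjusted p of 0.816 in edgeR's quasi-likelihood test.

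The remaining members were at or near the limit of counting. Itga9 (ENSMUSG00000039115, chromosome 9, 118606690 to 118901003, plus strand), a partner of Itgb1 that binds tenascin-C and osteopontin, was counted 6, 4, 7 and 9 times in WT libraries 1 to 4 and 4, 6, 4 and 4 times in Gsdmd-/- libraries 1 to 4. That is 0.396 ± 0.126 CPM in WT and 0.278 ± 0.0527 CPM in Gsdmd-/- cells, with p = 0.143 in an exact permutation test (two-sided, n = 4 each, smallest possible p 0.0286). Itgb8 (ENSMUSG00000025321, chromosome 12, 119158022 to 119238802, minus strand), which binds and activates latent TGF-beta with Itgav, had 2 counts in Gsdmd-/- library 2, or 0.118 CPM, and 0 counts in the other 7 libraries. No fold change is given for Itgb8, since both genotypes lay under the limit of 3 counts per library.

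Levels of different genes can be compared only after division by exon length, and are given as CPM per kilobase (kb) of exon. In WT cells the order was Itgb1 (138 CPM per kb), Itgb5 (55.4), Itga5 (38.4), Itgb3 (18.1), Itgav (6.51), Itgb7 (5.31), Itga4 (4), Itga6 (1.94), Itga9 (0.0515) and Itgb8 (0). The ranges of the 4 libraries overlapped between Itgav and Itgb7 and between Itgb7 and Itga4, and not between the other neighbours down to Itga9. In Gsdmd-/- cells Itgb3 had 30.5 CPM per kb and kept the fourth place, while Itgb7 (5.53 CPM per kb) stood above Itgav (4.72 CPM per kb) without overlap. Itgav and Itga4 (4 CPM per kb) overlapped in their ranges there, although Itgav was the higher of the pair in 4 of 4 libraries.

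**Figure D5:**
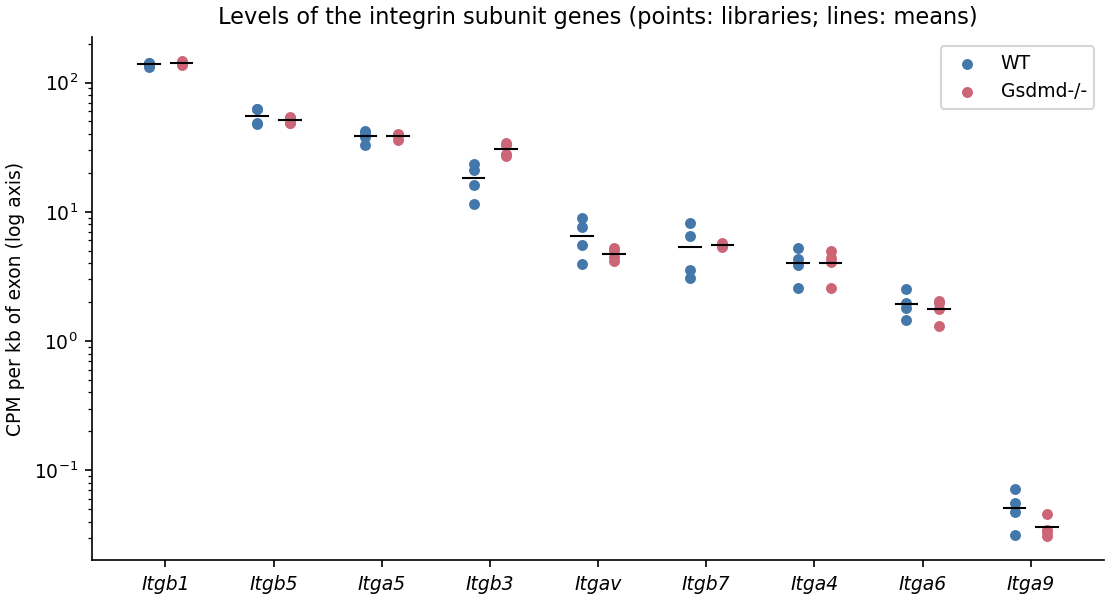
Level of 9 integrin genes in CPM per kb of exon (y axis, log scale) in WT (blue) and Gsdmd-/- (red) libraries, with a line at the mean of each genotype. Itgb8 is left out because 7 of its 8 values are 0. The order runs from Itgb1, at 138 and 142 CPM per kb, to Itga9, at 0.0515 and 0.0361 CPM per kb.

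The same scale gives the make-up of the transcripts that could pair. Of the summed CPM per kb of the beta subunits that pair with Itgav (Itgb1, Itgb3, Itgb5 and Itgb8), Itgb3 made up 8.45 ± 1.89% in WT and 13.6 ± 1.24% in Gsdmd-/- cells (SD, n = 4 each). The share of Itgb3 was 8.04%, 10.3%, 9.45% and 5.99% in the WT libraries and 12.8%, 14%, 12.5% and 15.2% in the Gsdmd-/- libraries, again without overlap. Itgb5 made up 26.1 ± 1.83% and 22.9 ± 1.28%, and Itgb1 the largest share, 65.5 ± 3.49% and 63.5 ± 1.21%. Among the alpha subunits described here that pair with Itgb1 (Itgav, Itga4, Itga5, Itga6 and Itga9), Itga5 held 75.8 ± 3.22% in WT and 78.7 ± 2.12% in Gsdmd-/- cells, and Itgav 12.5 ± 2.6% and 9.59 ± 0.868%. Itga4 held 7.76 ± 1.2% and 8.05 ± 1.64% of this sum, and Itga6 3.82 ± 0.776% and 3.56 ± 0.482%. Itga1, a collagen-binding partner of Itgb1 outside this set, had 1.35 CPM per kb in WT and 0.993 CPM per kb in Gsdmd-/- cells. Transcript shares do not give the share of receptor pairs at the surface.

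WT libraries 2 and 3 held the 2 highest WT values of 5 of the 8 tested members (Itgb1, Itgb3, Itgb5, Itgav and Itga5), as they did for 29.4% of all genes tested, and the 2 lowest of 1 member, Itgb7 (28.7% of all genes). The mean CPM of WT libraries 2 and 3 over that of WT libraries 1 and 4 was 1.74 for Itgav, 1.61 for Itgb3, 1.33 for Itga4, 1.29 for Itgb5, 1.17 for Itga5 and 1.05 for Itgb1. It was 0.953 for Itga6 and 0.451 for Itgb7. Within genotypes, Itgb7 ran against Itgb5 (r = -0.90), Itgav (r = -0.89) and Itgb3 (r = -0.86), whereas Itga5 ran with Itgb3 (r = 0.93) and Itgav (r = 0.89), each over 8 libraries. The coefficient of variation was lower in Gsdmd-/- than in WT libraries for 7 of the 8 tested genes, all but Itgb1. How many of all genes show this was not counted, so it cannot be read as particular to these genes.

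For each tested member, the 2 genes with the highest Pearson's r of log2 CPM over the 8 libraries were listed. Itgb3 was most like Nkain1 (r = 0.984) and Arhgap28 (r = 0.973), and Itgav was most like Ccnt1 (r = 0.993) and Gm16574 (r = 0.992). Itgb5 was nearest to Ube2h (r = 0.987) and Fhod3 (r = 0.980), and Itgb7 to Nek8 (r = 0.988) and Tnfsf14 (r = 0.985). Itga4 was nearest to Kmt2a (r = 0.989) and Ahnak2 (r = 0.986), and Itga5 to Fam214a (r = 0.980) and Sned1 (r = 0.975). Itgb1 followed 2610008E11Rik (r = 0.954) and Tlr3 (r = 0.949), and Itga6 followed Gm44199 and Rpusd2 (both r = 0.977). Several of these genes are themselves low, with a mean of 0.873 CPM for Gm44199 and 1.76 CPM for Gm16574.

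Of 37 ligands of these integrins, 21 were tested and none had an adjusted p under 0.05 in edgeR's quasi-likelihood test. At an unadjusted p under 0.05 there were 5 (12% of all genes), and at an adjusted p 1 (Lrrc32) by each of the exact test of edgeR (1.91%) and DESeq2 (2.26%), 0 by voom (0.333%) and 5 by voom with quality weights (13.9%). Their log2 fold changes lay above 0 in 4 and below 0 in 17, with a median of -0.52, where 51.5% of all genes lay below 0. At the study's cutoff 4 of the 21 were lower (3.28% of all genes) and 1 was higher (1.54% of all genes) in Gsdmd-/- cells. Lrrc32 (GARP) anchors latent TGF-beta for release by Itgav pairs and was among the genes chosen for qPCR in the study. It had 40.4, 43.4, 41 and 52.6 CPM in the WT libraries and 16.5, 17.7, 24.3 and 31.2 CPM in the Gsdmd-/- libraries. The genotypes did not overlap, and its log2 fold change was -0.98 (adjusted p = 0.0766, edgeR).

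The other lower ligands at the cutoff were Emilin1, which binds Itga4 and Itga9 with Itgb1, with 125 ± 37 CPM in WT against 86.3 ± 7.99 CPM in Gsdmd-/- cells, Tgfbi, a secreted ligand of Itgav pairs, at 629 ± 166 and 430 ± 57.3 CPM, and the basement membrane linker Nid1. Nid1 had 0.852, 25, 22.7 and 0.122 CPM in the WT libraries and 1.21 to 1.42 CPM in the Gsdmd-/- libraries. Its mean WT level thus came from libraries 2 and 3, and libraries 1 and 4 lay below the Gsdmd-/- values. Without WT libraries 2 and 3 the log2 fold change of Nid1 went from -3.20 to 1.41, that of Emilin1 from -0.53 to -0.11 and that of Tgfbi from -0.55 to -0.82 (adjusted p = 0.302, 0.761 and 0.0196, edgeR). The higher gene was the laminin chain Lama5, with 0.671 ± 0.322 CPM in WT against 1.2 ± 0.263 CPM in Gsdmd-/- cells.

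Besides Tgfbi, the ligands with the most reads were Spp1 and Mfge8, which did not pass the cutoff. Spp1 (osteopontin), a ligand of Itgav, Itga4 and Itga9 pairs, had 4572, 15912, 16736 and 3793 CPM in the WT libraries and 6695, 6711, 8066 and 6830 CPM in the Gsdmd-/- libraries. WT libraries 2 and 3 were above and WT libraries 1 and 4 below all Gsdmd-/- libraries. Mfge8, which bridges apoptotic cells to Itgav with Itgb3 or Itgb5, had 5865 ± 317 CPM in WT and 5827 ± 176 CPM in Gsdmd-/- cells (log2 fold change -0.0095). Fn1 (fibronectin), named here after its values were seen because it is the ligand of Itga5 with Itgb1, had 80.2, 7.27, 5.86 and 94.9 CPM in the WT libraries and 13.3 to 43 CPM in the Gsdmd-/- libraries. Its order within WT was the reverse of that of Spp1.

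Of 73 genes of integrin activation and the adhesion complex, 64 were tested and none had an adjusted p under 0.05 in edgeR's quasi-likelihood test. At an unadjusted p under 0.05 there were 7 (12% of all genes), and at an adjusted p 0 by the exact test of edgeR, DESeq2 and voom and 13 by voom with quality weights (13.9% of all genes). Their log2 fold changes lay above 0 in 28 and below 0 in 36, with a median of -0.017. Rapgef3 (EPAC1, an activator of the GTPase Rap1) was higher at the study's cutoff, with 0.442 ± 0.257 CPM in WT against 1.19 ± 0.481 CPM in Gsdmd-/- cells, and the tetraspanin Cd81 was lower, at 125 ± 31.3 and 87.7 ± 20.7 CPM. Without WT libraries 2 and 3 the log2 fold change of Cd81 went from -0.51 to -0.18, and that of Rapgef3 from 1.42 to 1.94. The genotypes did not overlap for Lpxn (leupaxin, log2 fold change 0.29), the tetraspanin Cd82 (0.26) and the kindlin gene Fermt3 (-0.16), which is 2 of 64 higher and 1 of 64 lower, where 3.48% and 4.12% of all genes did not overlap in these directions. Tln1 (talin-1), which activates integrins through the beta tail, had 1117 ± 198 CPM in WT and 1097 ± 157 CPM in Gsdmd-/- cells, and the actin linker Flna had 1780 ± 314 and 1679 ± 294 CPM. The tetraspanin Cd63 completed the 3 genes with the most reads, at 1209 ± 170 and 1308 ± 153 CPM.

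Of the 17 other integrin subunit genes, 7 were tested, with 1 log2 fold change above 0, 6 below 0 and a median of -0.45. None had an adjusted p under 0.05 in edgeR's quasi-likelihood test, against 4 at an unadjusted p under 0.05, 1 (Itgal) by each of the exact test and DESeq2, 0 by voom and 2 by voom with quality weights at an adjusted p, beside the shares of all genes given above. The genotypes did not overlap for 3 of them, Itgal, Itgb2 and Itgax, all lower in Gsdmd-/- cells (4.12% of all genes). Itgal, the alpha subunit of the lymphocyte integrin LFA-1, was lower at the study's cutoff, with 280, 398, 375 and 249 CPM in the WT libraries and 216, 233, 204 and 236 CPM in the Gsdmd-/- libraries (log2 fold change -0.55, adjusted p = 0.178, edgeR), and its log2 fold change was -0.26 without WT libraries 2 and 3. Itgad, another partner of Itgb2, was lower at the cutoff (log2 fold change -1.76), with 1.1, 8.86, 5.62 and 1.89 CPM in the WT libraries against 0.571 to 2.67 CPM in Gsdmd-/- libraries. This rested on WT libraries 2 and 3, without which the log2 fold change of Itgad was -0.21. The leukocyte subunits with the most reads were Itgb2, at 3196 ± 52.2 and 3111 ± 48.2 CPM, Itgax (CD11c), at 2273 ± 70.2 and 1917 ± 189 CPM, and Itgam (CD11b), at 479 ± 88.8 and 516 ± 36.8 CPM. Itgb6, the epithelial partner of Itgav, had 0 counts in all 8 libraries.

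Markers of other cells that carry these integrins were at the following levels, and their part in the values above was not tested. Of 12 macrophage markers tested, 0 passed the study's cutoff, and Adgre1 (F4/80) did not overlap between the genotypes, with a log2 fold change of -0.24. The 12 megakaryocyte and platelet genes, of a lineage that carries Itgb3, summed to 119 to 256 CPM in WT and 109 to 151 CPM in Gsdmd-/- libraries, mostly from Vwf. Vwf had 113, 238, 201 and 81.2 CPM in the WT libraries and 84.6 to 131 CPM in the Gsdmd-/- libraries, so that WT libraries 2 and 3 alone lay above the Gsdmd-/- range. Of the platelet genes, Gp1bb and Gp6 had 0 counts in all 8 libraries. Of the 6 tested, 1 log2 fold change lay above 0, that of Ppbp (0.26), and 5 lay below 0. Ppbp had 2.74 ± 1.05 CPM in WT and 3.32 ± 2.7 CPM in Gsdmd-/- libraries. Pf4 had 15.1 ± 8.97 and 14 ± 1.95 CPM, and Gp1ba 1.4 ± 0.274 and 1.17 ± 0.227 CPM. Treml1 had 4.15 ± 2.34 and 2.63 ± 0.123 CPM, with 2.13, 6.35, 5.98 and 2.13 CPM in WT libraries 1 to 4. The 12 mast cell and basophil genes are of a lineage that carries Itgb7. They summed to 14.5 to 73.6 CPM in WT and 48.5 to 70.1 CPM in Gsdmd-/- libraries, mostly from Kit. Kit (log2 fold change 0.59) had 71, 11.4, 10.3 and 60 CPM in the WT libraries and 46 to 66.9 CPM in the Gsdmd-/- libraries. WT libraries 2 and 3 alone lay below the Gsdmd-/- range of Kit. Of the 4 genes tested, 2 log2 fold changes lay above 0 and 2 below 0. Mcpt2, Mcpt4, Cma1 and Tpsab1 had 0 counts, and Mcpt1 was lower at the study's cutoff (log2 fold change -1.07, and -0.17 without WT libraries 2 and 3).

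The 15 lymphoid genes summed to 626 to 731 CPM in WT and 711 to 782 CPM in Gsdmd-/- libraries, nearly all from Il7r (676 ± 45.5 and 736 ± 29.7 CPM). Cd3d and Ncr1 had 0 counts in all 8 libraries, and Ighm was lower at the cutoff (log2 fold change -2.53). WT libraries 2 and 3 had 8.98 and 8.73 CPM of Ighm and the other 6 libraries at most 1.54 CPM, and without these 2 its log2 fold change was -0.20. The 10 dendritic cell genes summed to 34 to 71.5 CPM in WT and 28.6 to 37.4 CPM in Gsdmd-/- libraries, with Clec9a (-0.95) and Batf3 (-0.72) lower and Bcl11a (1.45) higher at the cutoff as log2 fold changes, and Siglech at 0 counts. Clec9a had 49.1 and 45.3 CPM in WT libraries 2 and 3 and 14.5 to 18.3 CPM in the Gsdmd-/- libraries, with 17 and 17.6 CPM in WT libraries 1 and 4, and its log2 fold change was -0.06 without WT libraries 2 and 3. The 8 endothelial genes, led by Kdr, summed to 30 to 70.1 CPM in WT and 49.5 to 81.5 CPM in Gsdmd-/- libraries, with Cdh5 lower at the cutoff (log2 fold change -0.51) and Tek and Cldn5 at 0 counts. The 12 neutrophil genes summed to 5.42 to 7.94 CPM in WT and 7.17 to 7.8 CPM in Gsdmd-/- libraries with Ly6g and Retnlg at 0 counts, and the 11 stromal genes to 4.93 to 8.76 and 4.55 to 6.66 CPM with Lum at 0 counts. None of the genes tested in these marker lists other than osteoclast had an adjusted p under 0.05 in edgeR's quasi-likelihood test, the exact test of edgeR, DESeq2 or voom. At an unadjusted p under 0.05 (12% of all genes) there were 2 of 12 macrophage, 3 of 5 dendritic cell, 1 of 4 mast cell, 1 of 4 lymphoid and 1 of 3 endothelial genes tested. By voom with quality weights at an adjusted p (13.9% of all genes) there were 4 of 12 macrophage, 3 of 5 dendritic cell, 2 of 6 megakaryocyte, 2 of 4 mast cell, 2 of 4 lymphoid and 1 of 3 endothelial genes.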

How the data were processed

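The authors deposited 1 table of read counts per gene, not normalized, for the 8 libraries. The genome build is mm10 according to the submitters' processing notes, and the aligner, the counting tool, the annotation and the use of strand are not given in the sources used here. Positions and exon lengths were taken from GENCODE M21 (GRCm38). Counts were filtered with filterByExpr and scaled by TMM in edgeR 4.0.16 (R 4.3.3), and genotype was tested two-sided with its quasi-likelihood test and Benjamini-Hochberg adjustment over the 12911 genes tested. The 2 genes under the filter were compared by an exact permutation test of CPM. The limit of 3 counts covers counting error only. Alternatives were limma voom (limma 3.58.1) with and without sample quality weights, the exact test of edgeR, DESeq2 1.42.0, other normalizations and filters, a log2 fold change of 1 or more in either direction, a block for the replicate number, and leaving out libraries. Leaving out WT libraries 1 and 4 together, and the alternatives for the ratio of Itgb3 to Itgav, were chosen after seeing the data. The fits were tested on simulated data with known changes. Leaving out WT libraries 2 and 3 was also applied to the list genes at the study's cutoff. Same-numbered libraries did not deviate together, so no pairing was used.

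The members and gene lists were chosen with earlier results of these data known. All members were described. From the other lists, genes were named at an adjusted p under 0.05 or at the study's cutoff, or as the 3 with the highest mean CPM, and other genes whose genotypes did not overlap, genes at 0 counts, leading genes of a marker list, Fn1 and Itga1 were picked with their values in view.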

Additional observations from a re-analysis of the deposited data

Results flagged for a closer look

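The Itgb8 level of 0.118 CPM in Gsdmd-/- library 2 stood apart from the other 3 Gsdmd-/- libraries, which had 0 counts. It rests on 2 counts, and the rule used, a gap to the nearest library that is large against the range of the 4, marks about 1 in 20 groups by chance. None of the other 20 groups of values examined met it.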

How the results depend on the processing

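At an adjusted p under 0.05, 45 genes were counted with edgeR's quasi-likelihood test, 1792 with voom and sample quality weights, 246 with the exact test, 292 with DESeq2, 109 without the filter, 161 without WT libraries 2 and 3, 2778 without WT libraries 1 and 4, and 14 (without WT 3, or without Gsdmd-/- 1, 2 or 3) to 84 (without WT 4) when 1 library was left out. Of the members, 0 were counted with the quasi-likelihood test, 3 with quality weights (Itgb3, Itgav and Itgb7), 1 (Itgb3) each with the exact test, DESeq2, no filter and without WT libraries 2 and 3, and 4 without WT libraries 1 and 4 (Itgb3, Itgb5, Itgb7 and Itgav), while leaving out 1 library gave 0 to 0. At the study's cutoff, the 623 genes became 1528 with quality weights, 1204 without the filter, 199 at a log2 fold change limit of 1, 2214 without WT libraries 1 and 4, and 469 to 1022 when 1 library was left out (1022 without WT 4). Member counts there were 3 with quality weights, 2 without WT libraries 1 and 4 (Itgav and Itgb7, since Itgb3 at 0.45 fell under the fold limit), 0 at a log2 fold change limit of 1, and 1 to 2 when 1 library was left out, with Itgav joining without WT 1 or without WT 4. The adjusted p of Itgb3 was 0.0193 with quality weights, 0.0285 without the filter and 0.0781 to 0.401 when 1 library was left out. Over its 19 alternatives it was 0.0121 to 0.401, and under 0.05 in 6.

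The direction turned for members near 0. Itgb5 was at 0.075 without WT libraries 2 and 3. Itgb7 was at -0.096 without WT 2, -0.13 without WT 3 and -0.40 without both, and at up to 0.35 when 1 library was left out. Itga4 was at 0.0041 with voom, 0.0016 with quality weights, 0.0088 with upper-quartile scaling, 0.02 without the filter, 0.033 without WT 1, 0.15 without WT 2, 0.16 without Gsdmd-/- 3 (-0.16 without WT 4) and 0.21 without WT libraries 2 and 3. Itga5 was at -0.037 with quality weights, -0.056 without WT 4 (0.057 without WT 2), -0.0026 without Gsdmd-/- 1 and -0.098 without WT libraries 1 and 4, and Itga6 was at 0.014 without WT 1 (-0.25 without WT 4). Of 152 log2 fold changes of members under alternatives, 123 kept their direction and their side of the threshold. Where a tool or filter changed a call, the cause was not tested.

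With the replicate number as a block, 25 genes and 0 members had an adjusted p under 0.05, and Itga4 was at 0.00066. The correlations of the deviations of same-numbered libraries were 0.0268, 0.182, 0.0412 and -0.201. Those of libraries with unlike numbers ranged from -0.253 to 0.333. Same-numbered libraries thus showed no clear shared deviation, and whether they were handled together is not given. Depth limits Itga9 and Itgb8. Without the filter the log2 fold change of Itga9 was -0.48 (adjusted p = 0.726, edgeR's quasi-likelihood test), and none is given for Itgb8.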
